A study of Mus musculus with 33 samples.

Results

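The genes described here are 10 components and readouts of the YAP and TEAD arm of Hippo signaling, taken by symbol from a count table of 17120 genes: the coactivators Yap1 and Wwtr1 (the gene of TAZ), the DNA-binding partners Tead1, Tead2 and Tead4, and the target and feedback genes Ankrd1, Amotl2, Lats2, Ajuba and Axl. Levels were followed in 33 RNA-seq libraries, 3 in each of 11 groups, from mouse embryonic stem cells (mESCs) derived from mice carrying ScxGFP, a reporter of the tendon transcription factor Scx. Embryoid bodies were first patterned to paraxial mesoderm (PM) with the BMP inhibitor LDN-193189 and the Wnt agonist CHIR, agents that every group shares. The protocol scheme adds the retinoic acid receptor (RAR) inverse agonist AGN at this stage for all groups. The written methods list either AGN or all-trans retinoic acid for it. The PM group, which the labels describe as embryoid bodies, was collected at D6, the day the labels count as induction day 0. All other cultures, labelled as monolayer, were then kept in TGFβ1, the smoothened agonist SAG and FGF2 together with either CD1530, an agonist of RARγ, or AGN, which were meant to favour tendon and fibrocartilage respectively. The libraries date from D6.25, D6.75, D7.5, from D8.5 and from D10, that is after 0.25, 0.75, 1.5, 2.5 and 4 days of induction. No induced culture went without TGFβ1, and which stem cell line a library came from is not given in the labels.

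YAP and TAZ have no DNA-binding domain of their own. When the kinases LATS1 and LATS2 phosphorylate them they are kept in the cytoplasm and degraded, and when cells spread, stiffen their cytoskeleton or are stretched they enter the nucleus and activate genes through TEAD factors. Several of those genes, among them Lats2 and Amotl2, encode inhibitors of the pathway and close a negative feedback loop, and in tendon the pathway is studied as one way in which cells sense load. The activity of YAP and TAZ is set largely by their location in the cell, which RNA levels do not measure.

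Library totals ranged from 17116084 to 38120841 counts with a median of 19899242, and apart from AGN at D8.5 replicate 1, which had the highest total, the deepest library had 22775275 counts. In CD1530 at D6.75, replicate 1 stood apart from its group: its long genes were low and its short genes high, with a long minus short log2 deviation of -0.306 against 0.159 and 0.153 in replicates 2 and 3. At D6 the paraxial mesoderm marker T was measured at 79.0 ± 4.01 CPM and Tbx6 at 9.56 ± 0.772 CPM, and Scx rose from 6.41 ± 0.852 CPM at D6 to 858 ± 17.4 CPM in CD1530 and 1223 ± 27.8 CPM in AGN at D10 (CPM is the usual count level normalised to library size, here after TMM scaling, given as mean ± SD of 3 libraries throughout). Msgn1 and Hes7 were low at D6, at 3.38 ± 0.607 and 0.573 ± 0.246 CPM. The 5 of 5 paraxial mesoderm markers summed to 103 to 111 CPM at D6. At D10 they summed to 8.28 to 10.6 CPM in CD1530 and 31.8 to 32.9 CPM in AGN. T was then at 0.503 ± 0.14 CPM in CD1530 and 27.1 ± 0.542 CPM in AGN, while Dll1 went the other way (8.33 ± 1.3 and 4.03 ± 0.229 CPM). Marker lists moved with the condition: at D10 the 4 of 4 cartilage markers summed to 223 to 229 CPM in CD1530 and 2910 to 3040 CPM in AGN, the 3 of 3 tendon markers to 881 to 912 and 1240 to 1300 CPM, the 4 of 4 neural markers to 68.0 to 72.2 and 16.1 to 17.9 CPM, and the 4 of 4 epithelial markers to 257 to 265 and 353 to 361 CPM. The epithelial list split, since Epcam (42.7 and 92.0 CPM) and Cdh1 (78.5 and 173 CPM) had lower means in CD1530 while Krt8 (55.1 and 42.3 CPM) and Krt18 (85.0 and 49.4 CPM) had higher ones. None of these markers was at 0 at D10, and their part in the differences below was not tested. In such bulk cultures fewer cells of a type and less RNA per cell cannot be told apart.

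TEAD factors bind a short motif whose core is GGAATG, or CATTCC when read on the other strand. It was searched on both strands in RefSeq promoters (GRCm38.p6, 250 bases before to 50 bases after each start), where 14.7% of all 32851 promoters held it. RefSeq entries were matched for 8 members with 10 promoters, 2 of them overlapping starts of Wwtr1, and 8 of these 10 promoters, of 7 members, held the motif. The promoter of Tead2 and 1 of the 2 of Lats2 did not. A CArG box, the site of the serum response factor SRF, was found in 1.63% of all promoters and in 0 of the 10. The sequences below run 5′ to 3′ on the strand of the gene with the motif in capitals, and are shown for the members with a motif before the start. For Yap1 and Wwtr1 only the 60 bases around the motif are given (chr9:8004705-8004764 and chr3:57576014-57576073, both minus strand). For Ankrd1 (chr19:36119845-36120094, minus), Amotl2 (chr9:102717554-102717803, plus), Ajuba (chr14:54577662-54577911, minus) and Axl (chr7:25788734-25788983, minus) the whole 250 bases before the start are given.
Yap1: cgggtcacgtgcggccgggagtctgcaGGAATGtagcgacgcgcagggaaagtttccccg
Wwtr1: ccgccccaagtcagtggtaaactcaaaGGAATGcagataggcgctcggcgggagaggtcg
Ankrd1: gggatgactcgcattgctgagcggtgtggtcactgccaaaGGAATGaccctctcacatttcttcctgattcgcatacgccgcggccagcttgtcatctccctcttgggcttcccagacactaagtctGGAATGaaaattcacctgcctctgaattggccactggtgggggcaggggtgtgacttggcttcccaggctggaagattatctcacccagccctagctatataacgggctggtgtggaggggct
Amotl2: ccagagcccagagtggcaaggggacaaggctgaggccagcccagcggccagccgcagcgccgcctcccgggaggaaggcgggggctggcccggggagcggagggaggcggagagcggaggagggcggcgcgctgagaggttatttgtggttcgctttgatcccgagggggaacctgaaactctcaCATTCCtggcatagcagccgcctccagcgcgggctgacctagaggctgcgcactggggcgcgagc
Ajuba: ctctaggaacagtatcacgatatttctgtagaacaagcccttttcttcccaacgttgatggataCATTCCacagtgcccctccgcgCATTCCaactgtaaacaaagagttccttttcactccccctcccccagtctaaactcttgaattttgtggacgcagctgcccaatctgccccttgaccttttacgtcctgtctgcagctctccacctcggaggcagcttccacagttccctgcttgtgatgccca
Axl: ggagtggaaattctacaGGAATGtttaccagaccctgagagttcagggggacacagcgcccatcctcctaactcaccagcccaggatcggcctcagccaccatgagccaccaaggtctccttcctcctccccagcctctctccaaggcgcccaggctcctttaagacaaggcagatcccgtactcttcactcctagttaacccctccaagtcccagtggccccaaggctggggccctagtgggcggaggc

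Ankrd1 and Ajuba each held 2 copies of the motif, 210 and 123 bases and 186 and 164 bases before the start, while Amotl2 held 1 copy at 65 bases and Axl 1 copy at 233 bases. The Yap1 copy lay 141 bases before its start. These matches describe letters only and say nothing about occupancy in these cells.

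Induction raised most of the 10 genes, and the rise was steepest for Ankrd1, Axl and Lats2. By D10 in CD1530, 8 members were higher than in PM, beside 43.3% of all genes, and 2 members were lower, beside 39.9% of all genes. In AGN at D10 the counts were again 8 higher, beside 41.6% of all genes, and 2 lower, beside 40.4%. The median log2 fold change of the members against PM was 1.15 in CD1530 and 0.95 in AGN, where the medians over all 17120 genes were 0.04 and -0.0025. The 2 members below their PM level at D10 were Tead4 and Ajuba in both conditions. Both D10 contrasts use the same 3 PM libraries, and culture format (as labelled), medium and time changed together between PM and every later group, so these cannot be told apart.

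After 0.25 days 9 members in CD1530 and 7 in AGN were called against PM, beside 11607 and 11667 of all 17120 genes. In CD1530 at D6.25, 6 members were higher than PM (34.5% of all genes were) and 3 were lower (33.3% of all genes); in AGN at D6.25, 5 were higher (35% of all genes) and 2 lower (33.1%). Wwtr1, Tead2, Lats2 and Axl rose in both conditions, by log2 fold changes of 0.67 to 1.08, and Yap1 by 0.20 in CD1530 and 0.17 in AGN. Amotl2 and Ajuba fell: Ajuba went from 149 ± 1.25 CPM in PM to 85.5 ± 1.26 CPM in CD1530 and 87.8 ± 2.59 CPM in AGN. Other calls at D6.25 rested on few reads or changed when single libraries were left out. Ankrd1, at only 16 to 33 counts per PM library, was higher in CD1530 (log2 fold change 0.91 ± 0.23 SE, edgeR adjusted p = 0.000587) but not called in AGN (0.52 ± 0.24, edgeR adjusted p = 0.0562, 0.033 without PM replicate 2, and 0.0366, 0.0449 and 0.0472 with library size only, DESeq2 and the length trend removed). Tead1 was lower in CD1530 (-0.28 ± 0.12, edgeR adjusted p = 0.0368), and the adjusted p rose to between 0.0768 and 0.146 without PM replicate 1, PM replicate 3, CD1530 at D6.25 replicate 1 or CD1530 at D6.25 replicate 2 and to 0.0862 with library size only. In AGN it was called only with the compared groups in the fit (0.0425) or the length trend removed (0.0191). Tead4 was not called in CD1530 (0.20 ± 0.10, edgeR adjusted p = 0.0696), but was without CD1530 at D6.25 replicate 2 (adjusted p = 0.046), with library size only (0.0201) and with the compared groups only (0.0284).

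**Figure D1:**
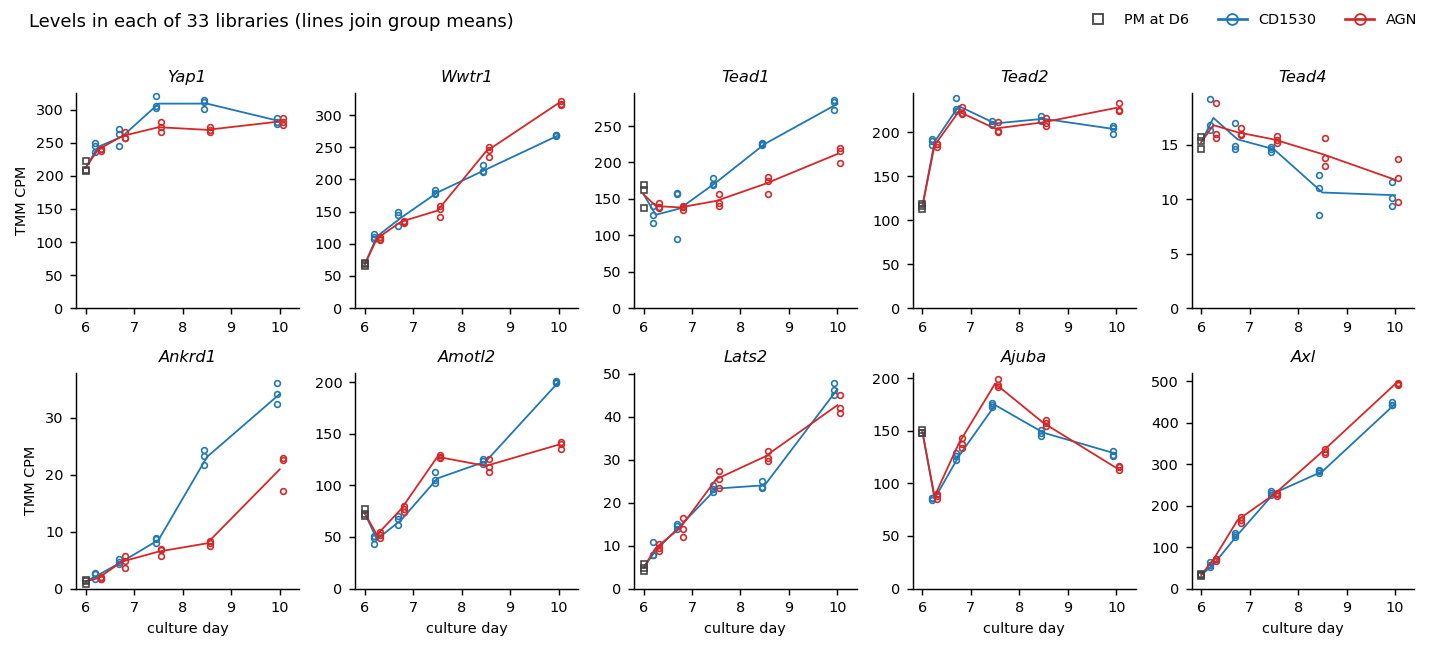
Levels of the 10 genes in each of the 33 libraries, in TMM-scaled CPM (linear axes from 0) against culture day; squares are the 3 PM libraries at D6, circles the CD1530 (blue) and AGN (red) libraries, shifted slightly apart, and lines join group means. Axl, Wwtr1, Lats2 and Ankrd1 are highest at D10, Ajuba peaks at D7.5 in both conditions, and the 3 Ankrd1 libraries of CD1530 at D8.5 (21.7 to 24.4 CPM) lie far above the 3 of AGN (7.49 to 8.31 CPM).

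Setting CD1530 against AGN within a time point compares an RARγ agonist with an RAR inverse agonist on the same background of TGFβ1, SAG and FGF2. No induced group went without both agents, so a difference cannot be assigned to either of them. Few members differed at first. At D6.25 no member was higher in CD1530 (1.23% of all genes were) and 1 was lower (0.695% of all genes). At D6.75 0 were higher (7.94% of all genes) and 3 were lower (10% of all genes). At D7.5 3 were higher (15.2% of all genes) and 2 lower (11.8%). At D8.5 3 were higher (20.4%) and 5 lower (19.6%), and at D10 4 were higher (22.7%) and 3 lower (24%). The members' median log2 fold change stayed near 0 at each time point, between -0.03 at D8.5 and 0.06 at D10, beside medians over all genes between -0.02 and 0.01. The called members lay on both sides of 0, with Ankrd1 and Tead1 higher in CD1530 late in the course, Axl lower at 4 of the 5 time points, and Wwtr1 and Amotl2 called in opposite directions at different time points.

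**Figure D2:**
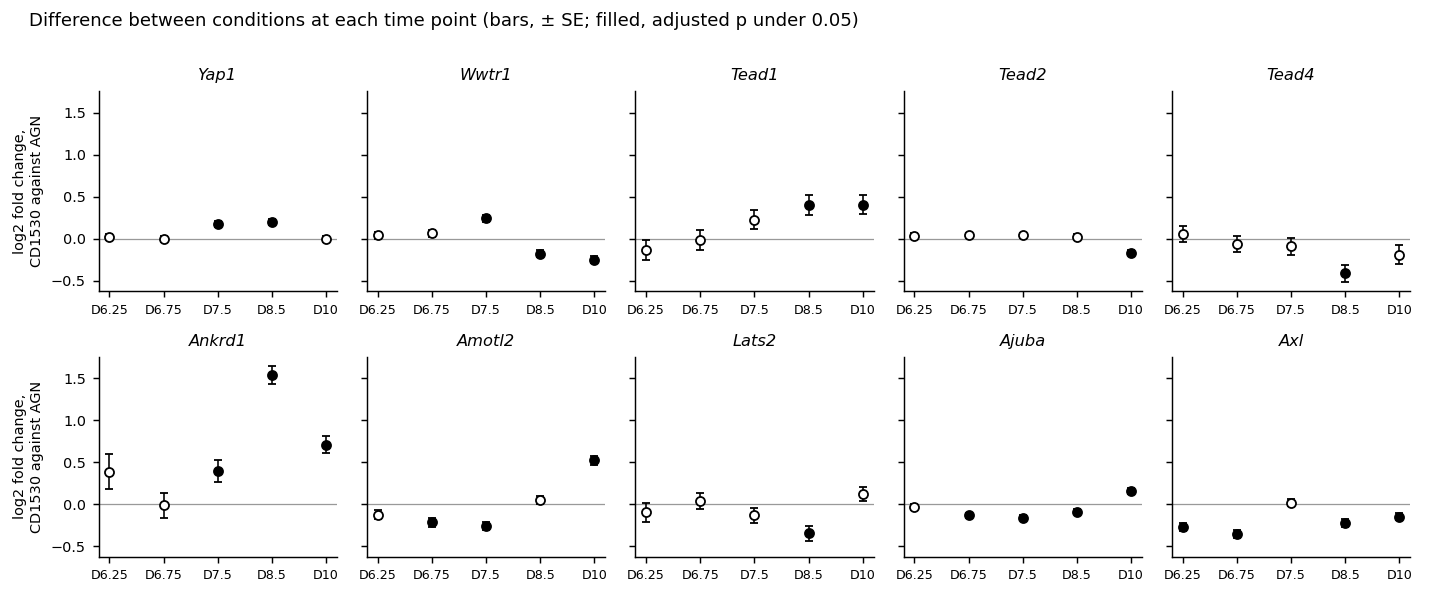
Log2 fold change of CD1530 against AGN for the 10 genes at each of the 5 time points, from the edgeR fit; bars are ± SE and filled points have an adjusted p under 0.05. Ankrd1 at D8.5 (1.54) is the largest difference among these 50 values, and Wwtr1, Amotl2 and Ajuba have filled points on both sides of 0.

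The coactivators differed modestly between conditions. Yap1 (chr9:7931999-8004596, minus strand, GRCm38) encodes the founding coactivator of the pathway and was among the steadier genes, at 213 ± 7.72 CPM in PM and 283 ± 4.19 and 282 ± 5.8 CPM in CD1530 and AGN at D10. Its rise came early, and at D7.5 the CD1530 libraries held 320, 305 and 303 CPM against 266, 281 and 274 CPM in AGN, with no overlap. At D8.5 the CD1530 libraries held 302, 312 and 315 CPM and the AGN libraries 274, 269 and 267 CPM, again without overlap. The log2 fold changes were 0.18 ± 0.04 SE at D7.5 (edgeR adjusted p = 0.000138) and 0.20 ± 0.04 at D8.5 (edgeR adjusted p = 1.51e-05). At D10 the groups overlapped, with a log2 fold change of 0.00 ± 0.04, and the change of the difference from D8.5 to D10 was itself called (-0.19 ± 0.05, edgeR adjusted p = 0.00298).

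Wwtr1 (chr3:57455649-57575910, minus strand), the gene of TAZ, rose at every step in both conditions, from 67.9 ± 2.29 CPM in PM to 269 ± 0.947 CPM in CD1530 and 319 ± 2.93 CPM in AGN at D10, which is 3.96-fold and 4.69-fold. At D7.5 its CD1530 libraries held 178, 178 and 183 CPM and its AGN libraries 154, 158 and 142 CPM. By D8.5 the order had turned, with 222, 213 and 211 CPM in CD1530 against 246, 234 and 250 CPM in AGN, and at D10 CD1530 held 270, 268 and 268 CPM against 317, 322 and 317 CPM. The groups did not overlap at any of these 3 time points. The log2 fold changes were 0.25 ± 0.04 at D7.5 (edgeR adjusted p = 1.2e-05), -0.18 ± 0.04 at D8.5 (edgeR adjusted p = 0.000672) and -0.25 ± 0.04 at D10 (edgeR adjusted p = 3.35e-06). A test over all 5 time points that the difference between conditions is constant gave an edgeR adjusted p of 1.33e-08 for Wwtr1. At D6.75 Wwtr1 was not called (0.06 ± 0.04), but was without CD1530 replicate 1, the library with the length deviation (0.13, edgeR adjusted p = 0.0106).

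Per kilobase of exon, which allows genes to be compared, Yap1 was above Wwtr1 in PM, at 23.0 ± 0.834 against 14.2 ± 0.48 CPM per kb. At D10 the order was the reverse in both conditions: Yap1 was at 30.6 ± 0.452 and Wwtr1 at 56.2 ± 0.198 CPM per kb in CD1530, and Yap1 at 30.5 ± 0.626 and Wwtr1 at 66.7 ± 0.614 CPM per kb in AGN. The ranges of the 3 libraries did not overlap in any of these pairs. The lengths are those of all annotated exons, since the isoforms used are not known.

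The TEAD genes each followed a course of their own. Tead2, a TEAD factor prominent in early embryos, rose from 116 ± 3.24 CPM in PM to 230 ± 7.8 CPM in CD1530 and 224 ± 4.59 CPM in AGN by D6.75 and afterwards had group means between 203 and 228 CPM. At D10 it was slightly lower in CD1530, where the libraries held 205, 207 and 198 CPM against 234, 225 and 225 CPM in AGN (log2 fold change -0.16 ± 0.03, edgeR adjusted p = 9.11e-05). Its difference between conditions changed from D8.5 to D10 by -0.19 ± 0.05 (edgeR adjusted p = 0.00207). The exons of Tead2 overlap those of Cd37 on the opposite strand, and the strand setting of the counting is not stated, so reads of the 2 genes may not be fully separated.

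Tead4, best known for its part in the trophectoderm, fell below its PM level by D10 under either agent. Its libraries held 15.7, 15.4 and 14.7 CPM in PM, 9.40, 11.6 and 10.1 CPM in CD1530 at D10 and 9.75, 12.0 and 13.7 CPM in AGN at D10. Every D10 library lay below every PM library. At D8.5 CD1530 was lower than AGN, with 8.601, 11.1 and 12.2 CPM against 13.8, 13.1 and 15.6 CPM (log2 fold change -0.41 ± 0.11, edgeR adjusted p = 0.00176). At D10 the groups overlapped (-0.19 ± 0.11, edgeR adjusted p = 0.176), and the comparison was called only when AGN at D10 replicate 1 was left out (-0.31, adjusted p = 0.0345). Tead3, which encodes the remaining family member, rose from 1.12 CPM per kb in PM to 8.30 and 8.63 CPM per kb in CD1530 and AGN at D10, above Tead4 at 2.88 and 3.28 CPM per kb. Tead3 was higher in CD1530 at D7.5 (0.19 ± 0.06, edgeR adjusted p = 0.0126). It was not called at D8.5 (-0.01 ± 0.06, edgeR adjusted p = 0.904) or D10 (-0.06 ± 0.06, edgeR adjusted p = 0.426).

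Tead1 (chr7:112679318-112906807, plus strand), broadly expressed in mesenchyme and muscle, was called in favour of CD1530 at both late time points. At D8.5 the CD1530 libraries held 226, 227 and 223 CPM of Tead1 and the AGN libraries 175, 157 and 179 CPM. At D10 they held 286, 272 and 283 CPM and 199, 220 and 216 CPM. Every CD1530 library lay above every AGN library at both time points. The log2 fold changes were 0.40 ± 0.12 at D8.5 (edgeR adjusted p = 0.00727) and 0.41 ± 0.12 at D10 (edgeR adjusted p = 0.00553), or 1.32-fold and 1.33-fold.

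The error of Tead1 is wide for a gene at this level, and its values within groups moved with gene length. Its annotated exons span 13570 bases, well inside the longest 20% of genes, which begins at 7007 bases. In CD1530 at D6.75 the libraries held 95.4, 158 and 157 CPM, the first being the replicate whose long genes were low. In PM the lowest of 170, 138 and 162 CPM was replicate 2, whose long minus short deviation of -0.098 was also the lowest of its group. With the length trend removed within groups, a setting added after the data were seen, Tead1 gave 0.40 at D8.5 and 0.41 at D10, and at D7.5, where it was not called (0.23 ± 0.12, edgeR adjusted p = 0.161), it was (0.23, edgeR adjusted p = 0.00191), as it was with only the compared groups in the fit (0.22, 9.16e-06). The test of a changing difference over the 5 time points gave an edgeR adjusted p of 0.023 for Tead1, and 0.0524 without CD1530 at D6.25 replicate 1.

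**Figure D3:**
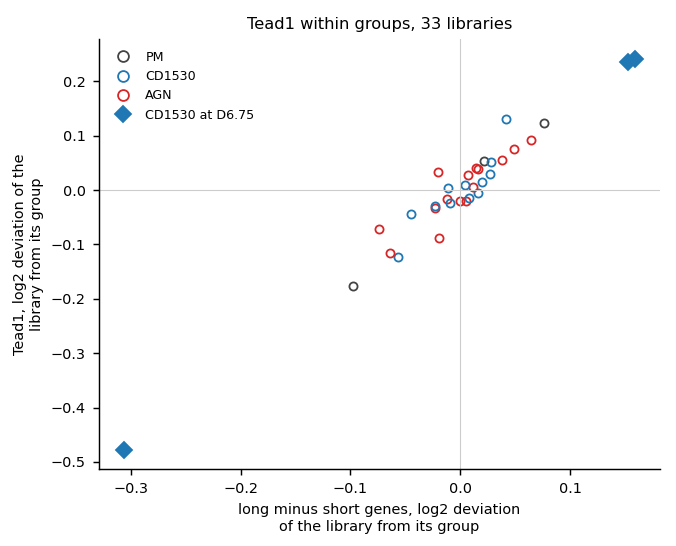
Log2 deviation of Tead1 from its group in each of the 33 libraries, against the same deviation of the longest 20% of genes minus the shortest 20%; gray is PM, blue CD1530, red AGN, and filled diamonds are the 3 libraries of CD1530 at D6.75. Most points lie near a rising line, with exceptions among the small deviations, and the diamond at the lower left is replicate 1 at -0.306 on the horizontal axis.

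Of the 10 genes, Ankrd1 carried the largest difference between the conditions. It encodes an ankyrin repeat protein of the sarcomere and nucleus and is a standard YAP and TAZ target that also responds to stretch and to TGFβ. The gene (chr19:36111961-36120099, minus strand; 2886 exonic bases) rose from 1.34, 1.56 and 0.862 CPM in PM to 32.3, 36.1 and 34.1 CPM in CD1530 and 22.9, 22.6 and 17.2 CPM in AGN at D10, which is 26.8-fold and 16.4-fold. The conditions parted at D8.5, when CD1530 held 21.7, 23.3 and 24.4 CPM and AGN 8.02, 7.49 and 8.31 CPM. The AGN libraries at D8.5 were still near those at D7.5 (5.68, 6.97 and 6.81 CPM), and that step was not called (0.29 ± 0.13, edgeR adjusted p = 0.0722).

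The log2 fold change of Ankrd1 between conditions was 1.54 ± 0.11 at D8.5 (edgeR adjusted p = 3.67e-15), or 2.91-fold, and 0.71 ± 0.10 at D10 (edgeR adjusted p = 9.13e-08), or 1.63-fold. The gap narrowed between the 2 days, by -0.83 ± 0.15 (edgeR adjusted p = 3.09e-05), with the AGN level rising 2.63-fold and the CD1530 level 1.48-fold over that step. At D7.5 the call was weaker: CD1530 held 8.003, 8.76 and 8.88 CPM, above every AGN library, with 0.40 ± 0.13 (edgeR adjusted p = 0.0198), and the adjusted p rose to 0.0599, 0.0729 or 0.116 without CD1530 at D7.5 replicate 2, CD1530 at D7.5 replicate 3 or AGN at D7.5 replicate 1. Ankrd1 is also a gene of heart and skeletal muscle. The 4 of 5 cardiac markers measured summed to 10.3 to 12.7 CPM in CD1530 and 7.59 to 7.85 CPM in AGN at D8.5, and to 3.59 to 5.00 and 3.62 to 5.84 CPM at D10. They did not move together at D8.5: Actn2 held 6.31 to 7.18 and 1.91 to 2.45 CPM, while Tnnt2 stood at 1.41 ± 0.207 and 2.64 ± 0.305 CPM and Myh6 at 1.54 ± 0.221 and 1.47 ± 0.335 CPM in CD1530 and AGN. The 3 of 4 skeletal muscle markers measured summed to 43.2 to 48.0 and 16.8 to 18.2 CPM at D8.5 and to 7.87 to 9.47 and 4.63 to 6.13 CPM at D10. That sum is nearly all Mylpf, a myosin light chain (45.5 ± 2.49 and 16.4 ± 0.774 CPM at D8.5), whereas the muscle regulators had lower means in CD1530: Myod1 was at 0.0393 ± 0.0681 and 0.532 ± 0.206 CPM at D8.5 and at 0 in CD1530 at D10, and Myog at 0.485 ± 0.0423 and 0.72 ± 0.111 CPM at D8.5. The part of these cells in the Ankrd1 difference was not tested.

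Amotl2 encodes an angiomotin that tethers YAP at junctions and restrains it, and it is induced by YAP as well. It fell from 73.0 ± 3.52 CPM in PM to 47.7 ± 3.89 and 52.1 ± 3.07 CPM at D6.25 and then rose. At D6.75 and D7.5 the AGN cultures led, at D7.5 with 129, 127 and 127 CPM against 105, 113 and 102 CPM in CD1530. At D10 the CD1530 cultures led, with 198.8, 200.5 and 200.8 CPM against 140.4, 142 and 136 CPM in AGN. The groups did not overlap at either time point. The log2 fold change was -0.21 ± 0.05 at D6.75 (edgeR adjusted p = 0.0026), -0.26 ± 0.05 at D7.5 (edgeR adjusted p = 8.67e-05) and 0.52 ± 0.05 at D10 (edgeR adjusted p = 9.05e-12), while at D8.5 the groups overlapped (0.05 ± 0.05). Over the D8.5 to D10 step the difference changed by 0.47 ± 0.07 (edgeR adjusted p = 1.52e-06). With only the 2 compared groups in the fit, the D6.75 calls of Amotl2 and Ajuba were lost (edgeR adjusted p = 0.112 and 0.256).

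Lats2, the kinase that phosphorylates YAP and TAZ and is itself a target, rose from 4.87 ± 0.802 CPM in PM to 46.4 ± 1.44 CPM in CD1530 and 42.7 ± 2.18 CPM in AGN at D10, or 9.48-fold and 8.72-fold. It differed between conditions at D8.5, where the CD1530 libraries held 23.5, 25.0 and 23.7 CPM and the AGN libraries 29.7, 30.4 and 32.1 CPM, all higher (log2 fold change -0.35 ± 0.09, edgeR adjusted p = 0.00104). At D10 the groups overlapped (0.12 ± 0.08, edgeR adjusted p = 0.227), although the comparison was called with only the compared groups in the fit (0.14, adjusted p = 0.0246), and the change from D8.5 to D10 was called (0.47 ± 0.12, edgeR adjusted p = 0.00219). An annotated gene on the same strand shares exons with Lats2, so its count may leave out reads that fall in both. Lats1 was not analysed here.

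Ajuba encodes a LIM protein that holds LATS kinases at junctions under tension. After the drop at D6.25 its group means were highest at D7.5, at 175 ± 1.74 CPM in CD1530 and 195 ± 3.71 CPM in AGN. At D7.5 the libraries held 176, 173 and 175 CPM in CD1530 and 194, 192 and 199 CPM in AGN (log2 fold change -0.16 ± 0.03, edgeR adjusted p = 0.000212). At D10 the order was the opposite, with 131, 127 and 127 CPM against 116, 115 and 113 CPM (0.16 ± 0.03, edgeR adjusted p = 0.000197). The D8.5 call was small (-0.09 ± 0.03, edgeR adjusted p = 0.0337) and did not hold without CD1530 at D8.5 replicate 1 or 2 or AGN at D8.5 replicate 1 or 3 (adjusted p between 0.072 and 0.128), nor with scaling by library size alone (0.166).

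Axl encodes a receptor tyrosine kinase of the TAM family and is a known YAP target. It had the highest level per kilobase of the 10 genes at D10, at 88.4 ± 0.7 CPM per kb in CD1530 and 97.9 ± 0.621 CPM per kb in AGN, after 6.53 ± 0.445 CPM per kb in PM. In plain CPM its libraries rose from 34.9, 33.2 and 30.5 in PM to 443, 449 and 443 in CD1530 and 490, 496 and 493 in AGN at D10, or 13.5-fold and 15-fold. It was lower in CD1530 at D6.25 (-0.27 ± 0.05, edgeR adjusted p = 0.000668), D6.75 (-0.35 ± 0.05, 1.03e-07), D8.5 (-0.23 ± 0.04, 5.5e-05) and D10 (-0.15 ± 0.04, 0.00491), each time without overlap between the 3 libraries of the groups. At D7.5 the groups overlapped, at 230 ± 5.1 and 227 ± 3.87 CPM. Vascular cells express Axl too, and the 5 of 5 endothelial markers summed to 215 to 256 CPM in CD1530 and 222 to 228 CPM in AGN at D6.25, to 316 to 374 and 248 to 264 CPM at D6.75, to 401 to 424 and 247 to 274 CPM at D7.5, to 258 to 270 and 208 to 222 CPM at D8.5 and to 147 to 161 and 140 to 149 CPM at D10, with none at 0. The list split at D8.5, where Pecam1, Kdr and Tie1 had higher means in CD1530 than in AGN. Cdh5 was then at 83.6 ± 1.92 CPM in CD1530 and 80.7 ± 4.29 CPM in AGN. Tek was lower in CD1530, at 7.01 ± 0.874 against 12.6 ± 0.804 CPM. The part of these cells in the Axl difference was not tested.

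Changes of the members between successive time points are given beside the share of all genes. In CD1530 8 members changed from D6.25 to D6.75 (45.9% of all genes did), 9 from D6.75 to D7.5 (34.2%), 7 from D7.5 to D8.5 (36.5%) and 9 from D8.5 to D10 (57.3%). In AGN the counts were 8 (43.7% of all genes), 7 (30.3%), 4 (42.1%) and 9 (59.4%). From D6.25 to D6.75 all the called members rose in both conditions, among them Axl by 2.24-fold and 2.37-fold and Ajuba by 1.47-fold and 1.57-fold. From D7.5 to D8.5 the called members in AGN were Wwtr1, Axl and Lats2, which rose, and Ajuba, which fell. In that step Ankrd1 rose 2.69-fold in CD1530 and Tead4 fell there by 1.38-fold.

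Several of these step calls changed when single libraries were left out. In CD1530 the Yap1 rise from D6.25 to D6.75 (0.09 ± 0.04, edgeR adjusted p = 0.0351) reached an adjusted p of 0.0601 to 0.219 without replicate 1 or 3 at D6.25 or replicate 2 or 3 at D6.75, and it was also lost with DESeq2 size factors (0.0646), library size only (0.0602), DESeq2 (0.0647) and the compared groups only (0.417). The Tead1 rise from D6.75 to D7.5 (0.34 ± 0.12) fell to 0.13 (adjusted p = 0.19) without CD1530 at D6.75 replicate 1, and without that library the step before it was called (0.30, adjusted p = 0.00187). It was also lost without CD1530 at D7.5 replicate 2 or 3 (adjusted p = 0.0528 and 0.0888). From D8.5 to D10 the Tead1 call was lost in CD1530 without D8.5 replicate 3 or D10 replicate 1 or 3 (adjusted p of 0.0514 to 0.0577) and in AGN without D8.5 replicate 2 or D10 replicate 2 or 3 (0.0626 to 0.0976). In the same step Tead2 in CD1530 was lost without D8.5 replicate 2 or 3 or D10 replicate 3 (0.0531 to 0.156), and Tead4 in AGN without D8.5 replicate 3 or D10 replicate 1 or 2 (0.0642 to 0.309), and both were lost with DESeq2 (0.138 and 0.0703). In AGN the Ankrd1 rise from D6.75 to D7.5 was lost without D6.75 replicate 3 or D7.5 replicate 2 or 3 (0.0577 to 0.13), the Lats2 rise from D7.5 to D8.5 without D7.5 replicate 1 (0.0742), and a fall of Amotl2 in that step, not called otherwise, was called without D8.5 replicate 1 (-0.15, 0.0374), and also with library size only (0.00134), the compared groups only (0.0477) and the length trend removed (0.0439). Scaling by library size only also ended the Tead1 calls from D8.5 to D10 (0.095 in CD1530, 0.114 in AGN), the Tead2 call in AGN for that step (0.866) and the Lats2 call in AGN from D7.5 to D8.5 (0.0839). With only the compared groups in the fit, the calls of Tead1 (0.206) and Tead2 (0.104) in CD1530 from D6.75 to D7.5 were lost.

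The difference between conditions was not constant over time for most members. In the test with 4 degrees of freedom over the 5 time points, 9 of the 10 members were called, beside 48.8% of all genes. The lowest adjusted p among them belonged to Amotl2 (6.88e-12), followed by Wwtr1 (1.33e-08), Ankrd1 (1.92e-08) and Ajuba (3.6e-06). Tead4 was not called (edgeR adjusted p = 0.0618), and leaving out any of 7 single libraries brought it to between 0.0222 and 0.0491: CD1530 at D6.25 replicate 2, AGN at D6.25 replicate 3, CD1530 at D6.75 replicate 1, CD1530 at D8.5 replicate 3, AGN at D8.5 replicate 2, CD1530 at D10 replicate 2 and AGN at D10 replicate 1. From D8.5 to D10 alone the difference changed for 6 members, beside 26.8% of all genes: it moved toward CD1530 for Amotl2, Lats2 and Ajuba and toward AGN for Ankrd1, Yap1 and Tead2.

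Further lists place the members in the wider pathway. They hold 14 genes of the Hippo kinase core and its upstream regulators (13 measured), 9 partners and regulators of YAP, TAZ and TEAD (8 measured), 18 other conserved YAP and TAZ targets (all measured) and 6 other mechanosensitive genes (all measured). At D10 in CD1530 against AGN, 4 of the kinase list were higher and 5 lower, 1 and 2 of the partners, 10 and 6 of the other targets, and 3 and 1 of the mechanosensitive genes. The medians were -0.01, -0.01, 0.19 and 0.21 on the log2 scale, beside -0.02 for all genes, of which 22.7% were higher and 24% lower. At D8.5 the counts of higher and lower genes were 3 and 4, 3 and 4, 9 and 5, and 2 and 1 in the same order, beside 20.4% and 19.6% of all genes. At D7.5 they were 2 and 3, 3 and 3, 8 and 2, and 1 and 1, beside 15.2% and 11.8%. At D6.75 they were 0 and 6, 1 and 1, 5 and 4, and 1 and 2, beside 7.94% and 10%, and at D6.25 0 and 0, 0 and 1, 2 and 2, and 0 and 0, beside 1.23% and 0.695%. The D6.75 counts include CD1530 replicate 1, the library whose long genes were low. Among the 6 lower genes of the kinase list, the libraries of the 2 conditions overlapped for Stk4 and Frmd6.

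Against PM the target list had the highest median of these lists. Of all genes, 43.3% were higher and 39.9% lower in CD1530 at D10 and 41.6% and 40.4% in AGN, with medians of 0.04 and -0.0025. In CD1530 at D10, 15 of the 18 other targets were higher and 2 lower, with a median of 2.79, and in AGN 15 were higher and 3 lower, with a median of 2.56. The kinase list had 9 higher and 3 lower in CD1530 (median 0.51) and 8 and 3 in AGN (median 0.28). The partners had 7 and 8 genes higher and 0 lower, and without Vgll2, which had no count in any PM library, the median of the other 7 was 1.97 and 1.67. The mechanosensitive genes had 4 and 5 higher and 0 lower, with medians of 0.93 and 0.92.

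**Figure D4:**
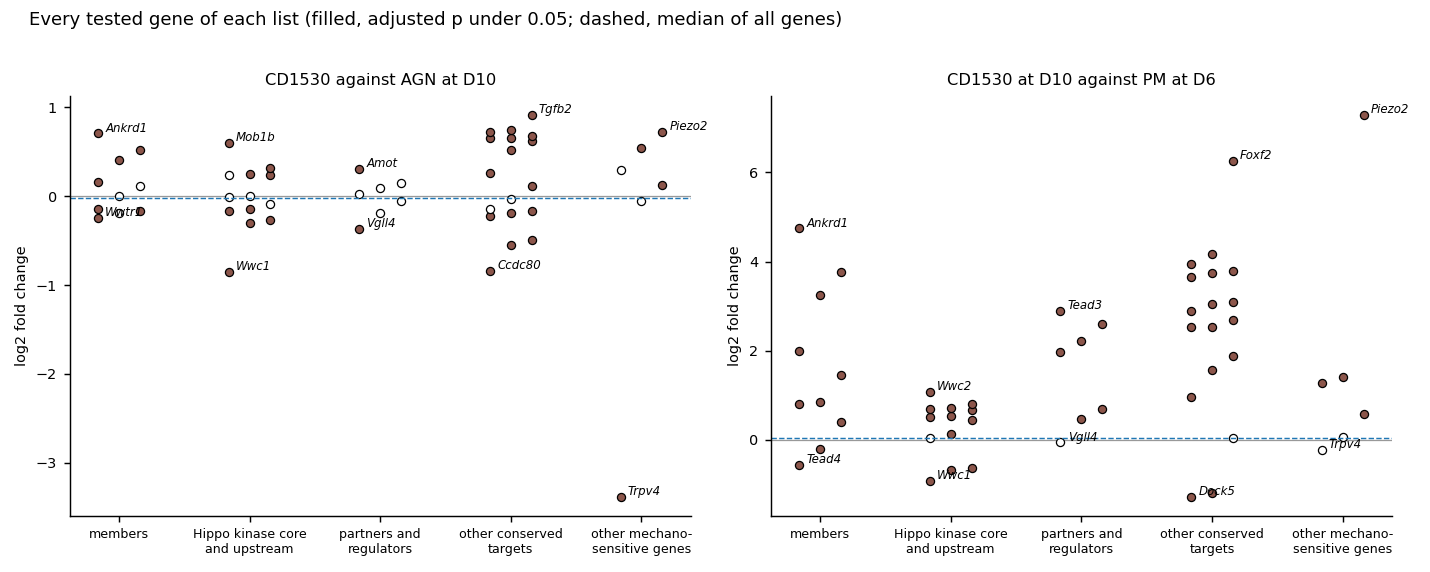
Log2 fold change of each measured gene of the 5 lists for CD1530 against AGN at D10 (left) and CD1530 at D10 against PM (right), points spread sideways for legibility; filled points have an adjusted p under 0.05, the dashed line is the median of all genes, and the highest and lowest gene of each list are named. Vgll2 is left out because CD1530 at D10 had 1 to 2 counts of it per library. On the left Trpv4 (-3.38) lies far below every other gene shown, and on the right Foxf2 is the highest of the other conserved targets.

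Among the other targets, Ccn1 and Ccn2, which encode the matricellular proteins CYR61 and CTGF and are the usual readouts of YAP activity, also respond to TGFβ. Ccn1 rose from 37.3 ± 2.03 CPM in PM to 320 ± 5.22 CPM in CD1530 and 296 ± 5.76 CPM in AGN at D10, or 8.57-fold and 7.94-fold. It was lower in CD1530 at D6.75 (149 ± 5.6 against 193 ± 8 CPM; log2 fold change -0.38 ± 0.04, edgeR adjusted p = 4.78e-10) and slightly higher at D10 (0.11 ± 0.04, edgeR adjusted p = 0.0152). Ccn2 rose from 37.8 ± 1.32 CPM to 313 ± 3.35 and 364 ± 6.84 CPM. It was higher in CD1530 at D8.5 (177 ± 3.41 against 137 ± 9.14 CPM; 0.37 ± 0.05, edgeR adjusted p = 3.79e-07) and lower at D10 (-0.22 ± 0.05, edgeR adjusted p = 0.000504). The order of the 2 conditions at D10 was therefore opposite for Ccn1 and Ccn2.

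The other targets with the largest differences at D10 were Tgfb2 (0.91 ± 0.05), Gadd45a (0.74 ± 0.07) and Fjx1 (0.73 ± 0.06) above AGN and Ccdc80 (-0.84 ± 0.06), Dock5 (-0.55 ± 0.12) and Foxf2 (-0.49 ± 0.05) below it, each with an edgeR adjusted p of 0.000631 or less. At D8.5 Nt5e, which encodes the ecto-nucleotidase CD73, stood highest (1.65 ± 0.10, edgeR adjusted p = 1.31e-17), at 22.6 CPM in CD1530 against 7.37 CPM in AGN.

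In the list of partners, Amot, the founding angiomotin, was high early in induction. It stood at 23.4 ± 1.65 CPM in PM, at D6.25 at 499.5 ± 20 CPM in CD1530 and 661 ± 13.8 CPM in AGN, and by D6.75 at 486 ± 103 and 1043 ± 16.6 CPM, and then at 72.9 ± 1.77 and 89.4 ± 1.4 CPM at D8.5. The difference at D6.75 was -1.10 ± 0.09 (edgeR adjusted p = 1.02e-09), and the lowest CD1530 library there held 368 CPM while the highest PM library held 25.1 CPM. At D10 the order was reversed, with 92.1 ± 1.76 CPM in CD1530 and 74.5 ± 4.18 CPM in AGN (0.31 ± 0.10, edgeR adjusted p = 0.0161). Amotl1, the third angiomotin, rose from PM to 385 ± 11.3 and 361 ± 9.48 CPM at D10, and was higher in CD1530 at D7.5 (0.45 ± 0.08, edgeR adjusted p = 9.54e-05). Vgll4, a repressor of TEAD, was lower in CD1530 at D10 (-0.37 ± 0.06, edgeR adjusted p = 4.5e-06), and Vgll2, a TEAD cofactor of muscle, had 1 to 2 counts per CD1530 library against 15 to 28 counts per AGN library.

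Of the kinase list, Wwc1, which encodes the upstream scaffold KIBRA, was the gene with the largest difference between conditions. It was lower in CD1530 from D6.75 (-0.50 ± 0.06) through D7.5 (-0.56 ± 0.06) and D8.5 (-0.68 ± 0.06) to D10 (-0.85 ± 0.07, edgeR adjusted p = 1.12e-13), where it was at 21.4 CPM in CD1530 and 38.7 CPM in AGN. Mob1b, the coactivator of LATS kinases, was higher in CD1530 at D10 (0.60 ± 0.06, edgeR adjusted p = 5.58e-11).

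The mechanosensitive genes outside the Hippo pathway were unlike one another. Piezo1 and Mrtfb were not called between conditions at any time point. Srf was lower in CD1530 at D6.75 (-0.15 ± 0.05, edgeR adjusted p = 0.0283) and D7.5 (-0.18 ± 0.05, edgeR adjusted p = 0.00422). At D10 Srf was higher in CD1530, with overlapping libraries (0.12 ± 0.05, edgeR adjusted p = 0.0401). Trpv4 encodes a calcium channel that senses osmotic and mechanical load in cartilage. At D10 it held 0.771 to 0.859 CPM in CD1530 and 8.07 to 8.67 CPM in AGN. These were 14 to 17 and 134 to 146 counts per library (-3.38 ± 0.19, edgeR adjusted p = 8.67e-19). Smaller differences in the same direction were called at D6.75 (-0.73 ± 0.18, edgeR adjusted p = 0.00335) and D8.5 (-0.56 ± 0.21, edgeR adjusted p = 0.0267). Those levels were low, at 1.58 and 2.63 CPM at D6.75 and 1.30 and 1.94 CPM at D8.5 in CD1530 and AGN. At D6.25 (-0.08 ± 0.16) and D7.5 (0.38 ± 0.20) Trpv4 was not called. Piezo2, a stretch-activated cation channel, rose from 1.90 ± 0.541 CPM in PM to 294 ± 10.2 CPM in CD1530 and 178 ± 9.92 CPM in AGN at D10 (0.72 ± 0.10 between conditions, edgeR adjusted p = 6.91e-07). Mrtfa, the actin-regulated cofactor of SRF, was higher in CD1530 at D8.5 (0.21 ± 0.05, edgeR adjusted p = 0.00171) and D10 (80.1 ± 3.07 against 54.9 ± 2.8 CPM; 0.55 ± 0.05, edgeR adjusted p = 3.49e-11). Cartilage markers moved in the same direction as Trpv4 at D10, with sums given above, and their part in its difference was not tested.

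**Figure D5:**
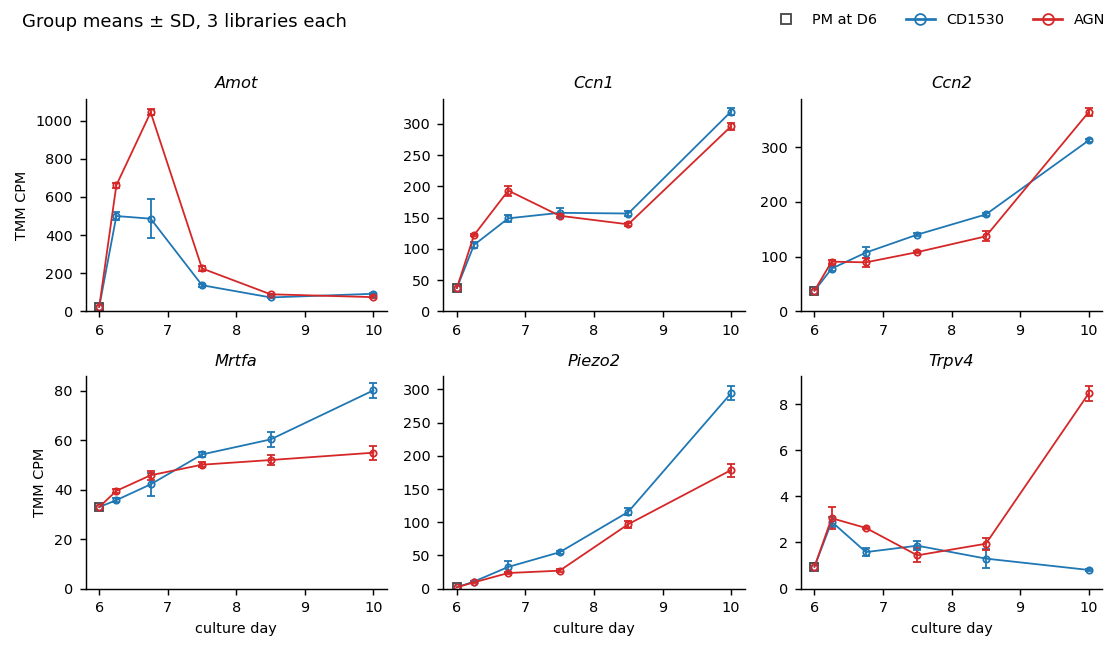
Group means ± SD of 3 libraries, in TMM CPM on linear axes from 0, for 6 genes of the further lists against culture day; the square is PM, blue CD1530 and red AGN. Amot peaks at D6.25 to D6.75 and Trpv4 is farthest apart at D10, at 8.46 CPM in AGN and 0.805 CPM in CD1530.

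The genes whose group means over the 11 groups followed a member most closely were named among 11302 genes with a mean of at least 5 CPM, as a description with no test. For Ankrd1 they included Crabp2 (Pearson r = 0.992), Abca3 (0.983), Crim1 (0.983) and Vstm4 (0.982), each higher in CD1530 than in AGN at D10. Crabp2, which encodes a retinoic acid-binding protein, stood at 4.01 CPM in PM, 85.2 CPM in CD1530 and 50.2 CPM in AGN at D10. For Wwtr1 they were Ctif (0.994), Dip2a (0.993), Ghr (0.993), Igf2 (0.991) and Cenpb (0.990), all higher in AGN at D10, with the growth factor gene Igf2 at 674 CPM in CD1530 and 1508 CPM in AGN. For Yap1 they were Habp4 (0.962), Ubxn7 (0.961), Tut4 (0.961), Col15a1 (0.948) and Plce1 (0.945). The correlations are on the log2(CPM + 1) scale, and the points share 1 course of time.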

How the data were processed

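RNA-seq libraries from 33 mouse cultures were analysed. Raw counts per gene were deposited by the authors, who aligned paired-end reads to GRCm38 with STAR and counted them with featureCounts; annotation release, strand setting and treatment of reads with several alignments are not given in the sources used here. The table holds 17120 genes, 17117 of which matched GENCODE M21, the source of positions and exon lengths. Its third-highest library reached at least 0.611 CPM for every gene, and the edgeR filter removed none. All 33 libraries entered 1 fit with a mean per group, TMM scaling and the robust quasi-likelihood F test in edgeR 4.0.16 (R 4.3.3, limma 3.58.1), with Benjamini-Hochberg adjustment over all genes within each of 19 comparisons and calls at an adjusted p under 0.05. Tests are two-sided for single contrasts. The script was tested on simulated data. Alternatives were DESeq2 size factors, library size only, no filter, 1 CPM in 3 libraries, DESeq2 1.42.0, the compared groups only, a replicate block, each library left out, and, added after the data were seen, removal of the length trend within groups.

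Groups came from the labels. The methods call the 3 libraries of a group biological replicates, without saying whether they came from separate differentiations. No 2 libraries were identical. The members and all lists were chosen with earlier results of these data known. The further lists were the Hippo kinase core and upstream, partners and regulators, other conserved targets and other mechanosensitive genes, of which at most 3 called genes per direction and comparison were named, with Ccn1, Ccn2, Trpv4 and Mrtfa always named. Marker lists covered paraxial mesoderm, tendon, cartilage, endothelial, cardiac, skeletal muscle, epithelial and neural cells. Per-kilobase levels are CPM divided by exon length. PCR copies were not removed by molecular identifiers, so counts are not independent molecules and totals of 17116084 to 38120841 counts per library bound counting error only. Figures were drawn with matplotlib 3.10.9 in Python 3.11.15. For Ankrd1, 1 gene among the 5 with the most similar pattern is not reported here.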

Additional observations from a re-analysis of the deposited data

Results flagged for a closer look

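The difference between CD1530 and AGN changed with time for 9 of the 10 members when tested over the 5 time points, with edgeR adjusted p-values of 0.000464 for Yap1, 1.33e-08 for Wwtr1, 0.023 for Tead1, 0.000943 for Tead2, 1.92e-08 for Ankrd1, 6.88e-12 for Amotl2, 0.0122 for Lats2, 3.6e-06 for Ajuba and 7.97e-05 for Axl. From D8.5 to D10 the log2 fold change of CD1530 against AGN moved by -0.195 for Yap1, -0.191 for Tead2, -0.831 for Ankrd1, 0.472 for Amotl2, 0.467 for Lats2 and 0.247 for Ajuba, each past the edgeR test of the difference itself. The cause of these changes was not tested. With 3 libraries per group, single libraries were not tested as outliers.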

How the results depend on the processing

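Across 8 settings other than leaving out a library, 1466 of 1520 member results kept their direction and their side of the threshold. Calls were lost for 18, gained for 22, and 14 changed sign, all of them uncalled values near 0. The setting without a filter could not change any of its 190 results, because the edgeR filter had removed no gene. The filter at 1 CPM in 3 libraries also left all 190 the same. The sign changes were Yap1 in CD1530 against AGN at D10 (-0.016 with DESeq2 size factors and -0.016 with DESeq2) and at D6.75 (0.0089 with library size only, 0.0045 with the compared groups only), Yap1 in CD1530 from D7.5 to D8.5 (-0.0027, -0.044, -0.0062, -0.0024 and -0.00044 with DESeq2 size factors, library size only, the compared groups, DESeq2 and the length trend removed), Tead1 in the change of the difference from D8.5 to D10 (-0.0035 with DESeq2 size factors, -0.0039 with DESeq2), and, with library size only, Tead2 from D7.5 to D8.5 (-0.0085 in CD1530, -0.038 in AGN) and Yap1 in AGN from D8.5 to D10 (-0.035). The count of called members at D6.75 was 1 with only the compared groups in the fit, in place of 3. The causes were not tested.

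Leaving out 1 library kept 1367 of 1440 member results, with 35 calls lost, 13 gained and 25 sign changes. Ranges that crossed 0 were, for CD1530 against AGN, -0.15 to 0.13 for Ankrd1, -0.064 to 0.17 for Lats2, -0.13 to 0.19 for Tead1 and -0.034 to 0.037 for Yap1 at D6.75, -0.019 to 0.15 for Tead4 at D6.25 and -0.012 to 0.018 for Yap1 at D10. In CD1530 they were -0.02 to 0.30 for Tead1 from D6.25 to D6.75, -0.015 to 0.026 for Yap1 from D7.5 to D8.5 and -0.16 to 0.072 for Tead4 from D8.5 to D10. In AGN the range was -0.11 to 0.029 for Tead4 from D6.25 to D6.75, and for the change of the Tead1 difference from D8.5 to D10 it was -0.046 to 0.058.

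No pairing by replicate number was detected: none of 15 same-numbered pairs correlated above 0.1, and 3 of 30 libraries correlated best with their own number. This does not show whether same-numbered libraries came from 1 differentiation. The replicate block changed 1 of 190 member results, calling Tead4 in the test over 5 time points (F = 3.45, adjusted p = 0.0384).

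Over all genes, the calls of CD1530 against AGN numbered 329 at D6.25 but 804 with the compared groups only and 606 with the length trend removed. They numbered 3076 at D6.75 but 1236 with the compared groups only, and in CD1530 7853 and 5185 from D6.25 to D6.75 and 5854 and 2792 from D6.75 to D7.5. Scaling by library size only moved the median of all genes at D10 against PM to -0.07 in CD1530 and -0.15 in AGN, and turned the split of higher and lower calls from 3227 and 3026 to 2566 and 3766 (CD1530, D7.5 to D8.5), from 4686 and 5120 to 3610 and 6520 (CD1530, D8.5 to D10), from 3668 and 3535 to 2461 and 5176 (AGN, D7.5 to D8.5) and from 5125 and 5043 to 4041 and 6406 (AGN, D8.5 to D10). For CD1530 against AGN at D6.25 the split of 210 higher and 119 lower became 408 and 396 with the compared groups only and 310 and 296 with the length trend removed.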
